A study of Mus musculus with 24 samples.

Results

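The core circadian clock genes were followed in mouse liver by RNA sequencing. The set held 10 genes, taken by symbol from the 41388 genes counted: the activators Arntl (also called Bmal1), Clock and Npas2, the repressors Per1, Per2, Per3 and Cry1, the nuclear receptors Nr1d1 and Nr1d2 (Rev-erb alpha and beta), and the output factor Dbp. Of these, 9 entered the tests. Npas2 did not, since it stayed below 1 CPM (the gene's counts scaled to the same library size in every mouse) in all 20 mice.

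The livers came from male mice on a C57BL/6J background. WT mice were homozygous for a floxed Lpin1 allele and carried no Cre. Adn-Lpin1-/- mice were littermates that carried the same alleles and a Cre recombinase driven by the adiponectin promoter. This deleted lipin 1, a phosphatidic acid phosphohydrolase, in adipocytes. The study reports its loss in adipose tissue only, and bulk liver was sampled here. From 8 weeks of age the mice ate a low-fat diet (LFD, 10% of kcal from fat) or a high-fat diet (HFD, 60% of kcal from fat). The sample labels give 16 weeks of feeding, whereas the methods of the study give 5 weeks. There were 4 groups (WT LFD, Adn-Lpin1-/- LFD, WT HFD and Adn-Lpin1-/- HFD), each sequenced as 5 separate mice and as 1 pool of the RNA of those 5, and the pools were kept out of the tests. The mice lived in a cycle of 12 hours of light and 12 hours of dark, and had no food for the last 4 hours, from 0900 on. This sets nominally the same hour of sampling for all groups. The hour at which lights came on and the actual hour for each mouse are not given in the sources used here.

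In the mammalian clock, a dimer of ARNTL with CLOCK or NPAS2 binds E-box sequences and switches on the Per and Cry genes, whose proteins then block that dimer, so that the loop turns once a day. The same dimer drives Nr1d1, Nr1d2 and Dbp. The NR1D proteins repress Arntl, Clock, Npas2 and Cry1 through ROR response elements, and DBP acts on D-boxes, among them those of the Per genes. In the liver most of these transcripts rise and fall strongly over the day: Arntl and Npas2 run opposite in phase to Nr1d1 and Dbp, while Per1 and Per2 follow in the evening and Clock cycles with a smaller amplitude. A level measured at 1 time point therefore depends on the hour of the sample as well as on the group.

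Total counts of the single-mouse libraries ranged from 36260187 to 81072794. The totals of WT LFD (36260187 to 45999456) all lay below those of Adn-Lpin1-/- LFD (51095146 to 61435897), whereas the totals of the 2 HFD groups overlapped (54036184 to 62249701 in WT HFD and 57550362 to 81072794 in Adn-Lpin1-/- HFD). All CPM values below are the deposited counts divided by TMM-scaled library sizes, which adjust for a different composition of the RNA. The hepatocyte markers Alb, Apoa1, Ttr, Cps1, Hnf4a and Serpina1c were high in all mice, with Alb between 55514 and 87678 CPM. The mice are separate animals by their labels. In bulk RNA, fewer cells of a type and less RNA per cell cannot be told apart.

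The regulatory letters at the start sites of 7 of the genes are shown because the activators and repressors above act on such elements. RefSeq windows, from 250 bases before to 50 after an annotated start, were at hand for 9 of the 10 genes (13 windows; none for Per2). Both strands were searched for the E-box CACGTG, the E-prime box CACGTT, the D-boxes TTATGTAA and TTACGTAA, the ROR elements TAGGTCA and TGGGTCA, and the cyclic AMP element TGACGTCA, and each match is in capitals. None of these motifs contains another. The window of Cry1 and 1 of the 2 windows of Per1 held an E-box, which 7.15% of all 32851 promoter windows hold. An E-prime box stood in those of Cry1 and Nr1d1 (4.68% of all windows), printed as AACGTG where it lies on the other strand. Per3 held a D-box at 2 places (1.06% of all windows). A ROR element stood in 1 of the 2 windows of Arntl, with its first base at position 31 counted from the start site (6.45% of all windows), and the cyclic AMP element in none (1.79% of all windows). The windows of Clock, Nr1d2 and Dbp, the 3 genes that differed by genotype, held none of these letters. A match is a string of letters, not a site shown to be bound, and enhancers outside the windows were not searched. The first bases of the matches lie at position -166 in Per1, -79 and -60 in Cry1, -28 in Nr1d1, and -205 and -158 in Per3, counted from the start site.
Clock promoter, GRCm38.p6 chr5:76304499-76304798, minus strand: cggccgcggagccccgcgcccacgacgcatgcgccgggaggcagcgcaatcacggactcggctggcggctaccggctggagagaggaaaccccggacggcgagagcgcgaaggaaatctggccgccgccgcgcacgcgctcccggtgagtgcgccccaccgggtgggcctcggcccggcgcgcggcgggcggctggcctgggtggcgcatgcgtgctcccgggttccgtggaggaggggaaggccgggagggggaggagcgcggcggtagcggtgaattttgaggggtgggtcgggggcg
Nr1d2 promoter, GRCm38.p6 chr14:18239057-18239356, minus strand: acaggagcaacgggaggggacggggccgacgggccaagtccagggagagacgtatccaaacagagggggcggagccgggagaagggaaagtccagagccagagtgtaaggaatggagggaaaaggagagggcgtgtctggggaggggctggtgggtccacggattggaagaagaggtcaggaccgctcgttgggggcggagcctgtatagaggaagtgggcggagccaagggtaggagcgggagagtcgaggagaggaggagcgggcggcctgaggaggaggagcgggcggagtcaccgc
Dbp promoter, GRCm38.p6 chr7:45704997-45705296, plus strand: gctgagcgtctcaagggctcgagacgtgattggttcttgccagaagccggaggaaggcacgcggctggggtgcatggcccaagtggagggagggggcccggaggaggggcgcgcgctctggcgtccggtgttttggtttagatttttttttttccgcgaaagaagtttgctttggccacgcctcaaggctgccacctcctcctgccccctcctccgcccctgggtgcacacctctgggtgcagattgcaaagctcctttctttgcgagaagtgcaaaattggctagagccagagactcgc
Per1 promoter, GRCm38.p6 chr11:69098699-69098998, plus strand: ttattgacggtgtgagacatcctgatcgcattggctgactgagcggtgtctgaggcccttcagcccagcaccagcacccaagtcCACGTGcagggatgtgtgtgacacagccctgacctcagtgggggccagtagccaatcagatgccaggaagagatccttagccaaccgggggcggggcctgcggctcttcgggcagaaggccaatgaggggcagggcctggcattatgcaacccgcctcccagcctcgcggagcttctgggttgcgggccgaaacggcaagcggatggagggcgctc
Cry1 promoter, GRCm38.p6 chr10:85185005-85185304, minus strand: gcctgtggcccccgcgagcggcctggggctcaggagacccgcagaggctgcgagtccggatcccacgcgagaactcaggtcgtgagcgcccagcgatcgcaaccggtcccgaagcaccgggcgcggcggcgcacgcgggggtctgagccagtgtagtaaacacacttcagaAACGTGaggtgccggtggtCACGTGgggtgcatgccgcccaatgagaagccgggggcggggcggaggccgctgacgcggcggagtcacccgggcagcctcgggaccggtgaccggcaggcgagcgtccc
Nr1d1 promoter, GRCm38.p6 chr11:98775328-98775627, minus strand: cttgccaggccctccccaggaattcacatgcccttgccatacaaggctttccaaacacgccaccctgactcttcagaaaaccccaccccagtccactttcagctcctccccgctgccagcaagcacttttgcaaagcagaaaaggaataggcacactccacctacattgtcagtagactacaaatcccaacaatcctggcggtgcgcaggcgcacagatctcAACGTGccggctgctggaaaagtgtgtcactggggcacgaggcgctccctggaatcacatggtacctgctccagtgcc
Per3 promoter, GRCm38.p6 chr4:151044616-151044915, minus strand: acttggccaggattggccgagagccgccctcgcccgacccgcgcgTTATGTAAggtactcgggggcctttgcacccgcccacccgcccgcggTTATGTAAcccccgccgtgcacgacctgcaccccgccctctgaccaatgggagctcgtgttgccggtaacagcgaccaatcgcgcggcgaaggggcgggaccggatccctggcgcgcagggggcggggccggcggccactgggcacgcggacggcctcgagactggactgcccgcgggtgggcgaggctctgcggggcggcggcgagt

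Per kilobase of exon, Nr1d1 was the highest of the 10 genes and Npas2 the lowest, with levels that spanned the whole range from abundant to barely detected. The median over the 20 mice, in CPM per kilobase and with the lowest and highest mouse, was 34.7 (22.4 to 61.4) for Nr1d1, 20.8 (15.1 to 26.8) for Dbp and 14.3 (10.3 to 17.98) for Nr1d2. The Per genes came next, at 13.1 (6.76 to 21.1) for Per1, 9.44 (6.64 to 12.8) for Per2 and 5.81 (3.604 to 8.02) for Per3. The repressor Cry1 followed at 2.79 (1.24 to 4.06) and the activator Clock at 2.39 (1.65 to 3.67). The lowest were the other activators, Arntl at 0.639 (0.206 to 1.51) and Npas2 at 0.0402 (0.0137 to 0.152). The ranges of neighbours in this order overlapped, except between Clock and Arntl and between Arntl and Npas2. Arntl was thus measured on 23 to 375 counts per mouse and Npas2 on 4 to 62, where the other 8 genes had from 218 to 12043 counts.

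**Figure D1:**
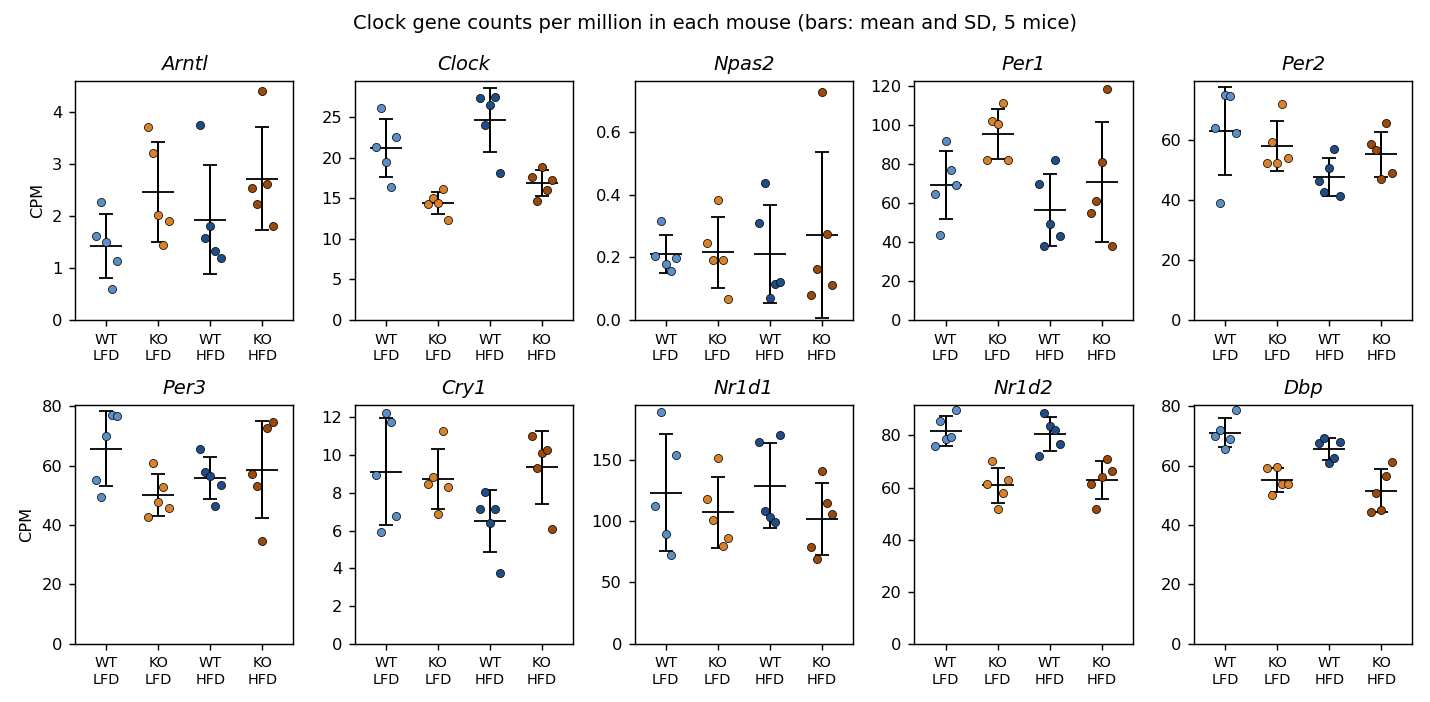
CPM of the 10 clock genes in each of 20 livers (y axis, from 0), by group (x axis; KO stands for Adn-Lpin1-/-); each point is a mouse, and bars give the mean and SD of 5 mice. Clock, Nr1d2 and Dbp are lower in both KO groups than in the WT group on the same diet, with little or no overlap, whereas the points of Arntl, Per1, Nr1d1 and Cry1 scatter widely within groups.

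Whether the clock differs with genotype was asked on each diet in turn. On the LFD, 3 of the 9 genes tested were lower in Adn-Lpin1-/- livers and none was higher (edgeR's quasi-likelihood test, Benjamini-Hochberg adjusted p at or below 0.05), where 8.11% of all 13052 genes tested were called lower, 6.27% higher and 14.4% in either direction. The same 3 genes, Clock, Nr1d2 and Dbp, were lower on the HFD, where 8.78% of all genes were called lower, 9.87% higher and 18.6% in either direction. Genes called lower on both diets made up 4.56% of all genes tested. The median log2 fold change of the 9 genes was -0.20 on the LFD and 0.07 on the HFD, beside 0.01 and 0.00 for all genes. The estimate was negative for 7 and positive for 2 genes on the LFD, and negative for 4 and positive for 5 on the HFD. The set thus leaned downward on the LFD but had no direction common to both diets.

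Clock encodes the DNA-binding partner of ARNTL. On the LFD, it was at 21.3, 26.1, 19.5, 16.4 and 22.5 CPM in the 5 WT mice and at 14.3, 15.1, 14.4, 16.1 and 12.3 CPM in the 5 Adn-Lpin1-/- mice. All Adn-Lpin1-/- mice lay below all WT mice, with the nearest pair close together. Clock fell by 31.8% (log2 fold change -0.55, SE 0.12, adjusted p = 0.00503 in edgeR). On the HFD, it was at 27.4, 23.97, 26.5, 27.4 and 18.1 CPM in WT and at 17.6, 14.6, 18.9, 16.04 and 17.2 CPM in Adn-Lpin1-/- mice. Only the lowest WT mouse reached into the Adn-Lpin1-/- range, and Clock fell by 31.7% (log2 fold change -0.55, SE 0.12, adjusted p = 0.00443 in edgeR).

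Nr1d2 encodes REV-ERB beta, a repressor of Arntl and of the other genes with ROR elements. LFD values were 75.9, 85.5, 78.5, 79.5 and 89.9 CPM in WT mice and at 61.3, 70.2, 51.7, 57.9 and 62.8 CPM in Adn-Lpin1-/- mice. On the HFD, the values were 71.9, 88.8, 83.6, 82.2 and 76.7 CPM in WT and 61.2, 51.8, 64.01, 71.1 and 66.3 CPM in Adn-Lpin1-/- mice. The genotypes did not overlap on either diet, and on the HFD the nearest mice were under 1 CPM apart. Nr1d2 fell by 25.7% on the LFD (log2 fold change -0.43, SE 0.09, adjusted p = 0.00281 in edgeR) and also fell on the HFD (log2 fold change -0.36, SE 0.09, adjusted p = 0.00815 in edgeR).

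Dbp encodes a PAR bZIP factor that carries the clock signal to genes of hepatic metabolism. On the LFD, it was at 70.1, 71.95, 65.7, 69.1 and 78.8 CPM in WT mice and at 59.2, 50.04, 59.5, 53.7 and 53.7 CPM in Adn-Lpin1-/- mice. On the HFD, the values were 67.8, 69.4, 61.004, 62.5 and 67.96 CPM in WT and 44.5, 50.7, 44.97, 56.4 and 61.4 CPM in Adn-Lpin1-/- mice. The genotypes were apart on the LFD, and on the HFD 1 Adn-Lpin1-/- mouse just passed the lowest WT mouse. Dbp fell by 22.4% on the LFD (log2 fold change -0.37, SE 0.08, adjusted p = 0.00609 in edgeR) and by 21.5% on the HFD (log2 fold change -0.35, SE 0.08, adjusted p = 0.00712 in edgeR). The last exons of Dbp share 491 bases (16.7% of its exon length) with Sphk2 on the opposite strand, and Nr1d1 shares 263 bases (8.55%) with Thra, and no strand setting is stated for the counting. Sphk2 (log2 fold change 0.22 on the LFD, adjusted p = 0.0968 in edgeR, and 0.03 on the HFD, adjusted p = 0.833) and Thra (0.09, adjusted p = 0.619, and 0.18, adjusted p = 0.214) were not called.

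Groups without overlap were found for 3 of the 9 genes on the LFD (Clock, Nr1d2 and Dbp), against 10.1% of all genes tested, and for 1 on the HFD (Nr1d2), against 11.4%. With the diets averaged, the same 3 genes were lower and none was higher (15.8% of all genes were called lower, 17.1% higher, 32.9% in either direction). The averaged log2 fold changes were -0.55 for Clock (SE 0.08, adjusted p = 9.22e-05 in edgeR), -0.39 for Nr1d2 (SE 0.06, adjusted p = 9.88e-05) and -0.36 for Dbp (SE 0.06, adjusted p = 0.000149). These 3 calls held on each diet in all 30 alternatives tried, each mouse left out in turn among them. The largest adjusted p on either diet was 0.0305 for Clock, 0.0391 for Nr1d2 and 0.0274 for Dbp. Library composition moved with genotype as well. The trend with the GC content of the genes was fitted to each gene's log2 CPM minus its mean over the single-mouse libraries. A difference between the genotypes then shows as opposite signs, which are not slopes of the raw values. This relative trend sloped downward in all 10 WT libraries and upward in all 10 Adn-Lpin1-/- libraries. With that trend removed, the log2 fold change was -0.41 on both diets for Clock, -0.31 and -0.24 for Nr1d2 and -0.45 and -0.49 for Dbp, and all remained called. With all libraries thinned to the smallest total, it was -0.53 and -0.55 for Clock, -0.43 and -0.37 for Nr1d2, and -0.37 and -0.34 for Dbp, on the LFD and the HFD.

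**Figure D2:**
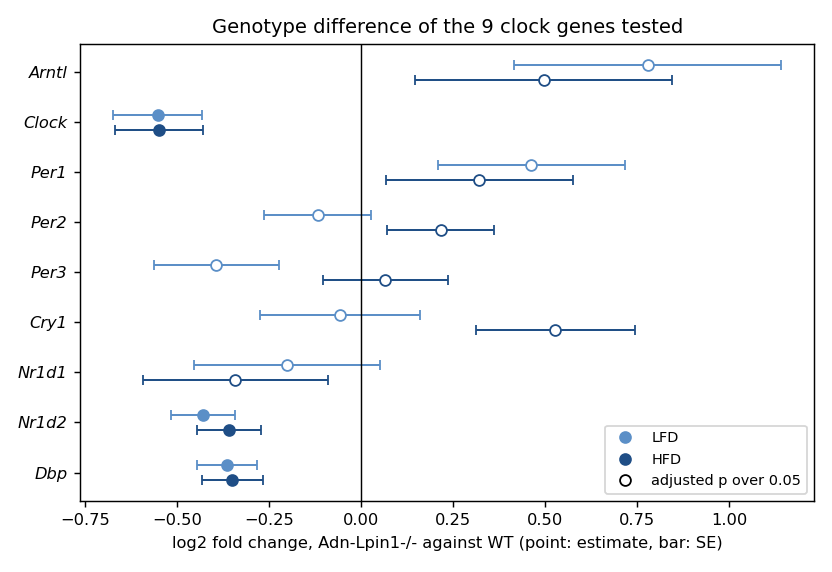
Log2 fold change of Adn-Lpin1-/- against WT (x axis; 0 is no difference) for the 9 clock genes tested (y axis), on the LFD and the HFD; points are edgeR estimates, bars 1 SE, and open points have an adjusted p over 0.05. Clock, Nr1d2 and Dbp lie between -0.55 and -0.35 with short bars, and the other 6 genes have wider bars on both sides of 0.

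The other activator, Arntl, had a higher mean in Adn-Lpin1-/- livers but did not pass the test. In LFD livers it was at 1.62, 2.27, 1.49, 0.599 and 1.13 CPM in WT and at 3.71, 3.201, 2.01, 1.44 and 1.901 CPM in Adn-Lpin1-/- mice. On the HFD, it was at 3.74, 1.58, 1.798, 1.33 and 1.18 CPM in WT and at 2.53, 2.22, 4.397, 2.61 and 1.81 CPM in Adn-Lpin1-/- mice. The genotypes overlapped on both diets, and mouse 1 of WT HFD stood at more than double the other mice of its group. The log2 fold change was 0.78 on the LFD (SE 0.36, adjusted p = 0.16 in edgeR) and 0.50 on the HFD (SE 0.35, adjusted p = 0.339 in edgeR), and 0.64 with the diets averaged (SE 0.25, adjusted p = 0.0576 in edgeR). The averaged difference was called by DESeq2 (adjusted p = 0.0315), with the pools as sixth libraries (adjusted p = 0.0243), and with 1 mouse left out (WT LFD mouse 2, 0.0308; Adn-Lpin1-/- LFD mouse 4, 0.0381; WT HFD mouse 1, 0.0111; or Adn-Lpin1-/- HFD mouse 5, 0.0431). The pools repeat RNA of the same mice and are not independent libraries. Here and below, a call with the pools therefore understates the spread and is no evidence of its own. Npas2 was at 0.156 to 0.315 CPM in WT LFD, 0.0656 to 0.383 in Adn-Lpin1-/- LFD, 0.0692 to 0.437 in WT HFD and 0.08001 to 0.727 in Adn-Lpin1-/- HFD, and the ranges overlapped throughout.

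Among the repressors, no difference by genotype was called for any of the Per genes or Cry1. Per1, which light and glucocorticoids also induce, was at 69.4 ± 17.6 CPM (mean ± SD, n = 5 mice) in WT LFD and 95.5 ± 13.1 CPM in Adn-Lpin1-/- LFD, and at 56.6 ± 18.6 CPM in WT HFD and 70.7 ± 30.9 CPM in Adn-Lpin1-/- HFD. For Per1 the log2 fold change was 0.46 on the LFD (SE 0.25, adjusted p = 0.24 in edgeR) and 0.32 on the HFD (SE 0.25, adjusted p = 0.398). With the diets averaged it was 0.39 (adjusted p = 0.0999), and this was called with the pools as sixth libraries (adjusted p = 0.0483) and with WT HFD mouse 4 (0.0469) or Adn-Lpin1-/- HFD mouse 5 (0.0343) left out. Per2 was at 62.98 ± 14.7 and 58.02 ± 8.33 CPM on the LFD, and at 47.6 ± 6.43 and 55.3 ± 7.497 CPM on the HFD, for WT and Adn-Lpin1-/- mice. Its log2 fold change was -0.12 (adjusted p = 0.632 in edgeR) and 0.22 (adjusted p = 0.318), so the estimates stood on opposite sides of 0.

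Per3 is the Per gene with the weakest known effect on the loop. It was at 55.3, 49.5, 70.1, 77.05 and 76.6 CPM in WT LFD and at 42.8, 60.9, 47.7, 52.8 and 45.8 CPM in Adn-Lpin1-/- LFD, and the 2 groups overlapped. The log2 fold change on the LFD was -0.39 (SE 0.17, adjusted p = 0.127 in edgeR), and it was called only with the pools as sixth libraries (adjusted p = 0.0421). On the HFD, Per3 ranged from 46.2 to 65.7 CPM in WT and from 34.6 to 74.9 CPM in Adn-Lpin1-/- mice, with a log2 fold change of 0.07 (SE 0.17, adjusted p = 0.816 in edgeR).

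Cry1 encodes the strongest repressor of the CLOCK dimer. On the HFD, it was at 7.15, 8.03, 6.38, 7.16 and 3.73 CPM in WT and at 11.01, 9.33, 10.1, 10.3 and 6.06 CPM in Adn-Lpin1-/- mice, so 4 of 5 Adn-Lpin1-/- mice lay above all WT mice. The log2 fold change was 0.53 (SE 0.22, adjusted p = 0.0931 in edgeR), and it was called once Adn-Lpin1-/- HFD mouse 5 was left out (0.65, adjusted p = 0.0393) and with the pools as sixth libraries (0.59, adjusted p = 0.0181). On the LFD, the means were 9.12 ± 2.84 CPM in WT and 8.75 ± 1.59 CPM in Adn-Lpin1-/- mice, with a log2 fold change of -0.06 (SE 0.22, adjusted p = 0.894 in edgeR).

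Nr1d1, the most abundant of the set per kilobase and the paralog of Nr1d2, did not pass the test. On the LFD, it was at 112, 189, 89.2, 72.05 and 154 CPM in WT and at 118, 101, 151, 79.4 and 86.3 CPM in Adn-Lpin1-/- mice. On the HFD, it was at 164, 108, 103, 99.4 and 169.9 CPM in WT and at 78.5, 68.8, 141, 115 and 106 CPM in Adn-Lpin1-/- mice. The genotypes overlapped on both diets. The log2 fold change was -0.20 on the LFD (SE 0.25, adjusted p = 0.635 in edgeR) and -0.34 on the HFD (SE 0.25, adjusted p = 0.363 in edgeR), with an SE more than double that of Nr1d2.

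The effect of diet was asked within each genotype. No clock gene was called between the HFD and the LFD in WT mice, where 1.1% of all genes were called (0.429% higher, 0.674% lower), in Adn-Lpin1-/- mice (2.46%, of which 1.2% higher and 1.26% lower) or with the genotypes averaged (7.26%, of which 3.55% higher and 3.72% lower). DESeq2 and voom also called 0 of the 9 genes in each of these. At an unadjusted p under 0.05 in edgeR, there were 2 genes in WT mice, 0 in Adn-Lpin1-/- mice and 2 with the genotypes averaged. In WT mice these were Per2, with a log2 fold change of -0.40 on the HFD (SE 0.15, adjusted p = 0.181 in edgeR), and Cry1, with -0.49 (SE 0.22, adjusted p = 0.28). Without mouse 2 of WT LFD, the lowest in Per2 of its group, Per2 was called in WT mice (log2 fold change -0.53, adjusted p = 0.0493 in edgeR) and with the genotypes averaged (-0.30, adjusted p = 0.0295). Clock was at a log2 fold change of 0.22 on the HFD in either genotype and averaged (adjusted p = 0.115 in edgeR). Without mouse 5 of WT HFD, the average was 0.27 and was called (adjusted p = 0.0329), and so it was with the pools as sixth libraries (0.23, adjusted p = 0.0281).

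The genotype by diet interaction, which asks whether genotype acts alike on both diets, was not called for any clock gene, and edgeR called 0.0% of all genes (938 of 13052 had an unadjusted p under 0.05; DESeq2 called 30 genes and voom 0). None of the 9 clock genes had an unadjusted p under 0.05 in edgeR, and DESeq2 and voom called 0 of them. Over the 9 genes, the log2 difference of the effects lay between -0.28 (Arntl) and 0.58 (Cry1), with SEs from 0.12 to 0.50. For Clock, Nr1d2 and Dbp it was 0.00 (SE 0.17), 0.07 (SE 0.12) and 0.02 (SE 0.12), so none of the 3 differences between diets was larger than its SE.

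Further clock and clock-linked genes were taken as 3 lists. Of 16 other clock genes (ROR receptors, further bHLH and bZIP factors, kinases and other regulators of the loop, Cry2), edgeR called 1 lower and 1 higher on each diet, where 14.4% (LFD) and 18.6% (HFD) of all genes were called. With the diets averaged, 4 were lower and 1 was higher (32.9% of all genes were called), and the median log2 fold change was -0.03, beside 0.00 for all genes. These counts are near the shares over all genes. Tef, a PAR bZIP factor like DBP, was lower on the LFD (log2 fold change -0.29, SE 0.08, adjusted p = 0.013 in edgeR) and averaged (-0.22, adjusted p = 0.00414). Rora, which activates through the elements that the NR1D proteins repress, was lower on the HFD (-0.34, SE 0.11, adjusted p = 0.0353) and averaged (-0.33, adjusted p = 0.00333). With the GC trend removed, Rora was at -0.20 on the HFD (adjusted p = 0.177) and -0.19 averaged (adjusted p = 0.0549). The HFD call of Rora held in 24 of 30 alternatives, and among those that lost it were the fits with WT HFD mouse 2 left out (-0.30), or Adn-Lpin1-/- HFD mouse 1 (-0.32), 2 (-0.28) or 5 (-0.32).

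Csnk1e, a kinase that marks PER proteins for decay, was higher on both diets, without overlap of the genotypes on either. On the LFD it was at 8.801, 8.77, 7.27, 8.21 and 7.62 CPM in WT and 8.92, 12.6, 9.72, 10.5 and 9.16 CPM in Adn-Lpin1-/- mice, and on the HFD at 8.097, 8.06, 6.42, 7.06 and 9.47 and 9.65, 10.8, 10.5, 11.2 and 10.03 CPM. The log2 fold change was 0.32 on the LFD (SE 0.11, adjusted p = 0.0469 in edgeR) and 0.41 on the HFD (SE 0.11, adjusted p = 0.0115 in edgeR). The LFD call held in 11 of 30 alternatives (adjusted p from 0.013 to 0.152, the largest without mouse 2 of Adn-Lpin1-/- LFD), and the HFD call in 29 of 30 (0.0508 with the GC trend removed). With the diets averaged, Csnk1e was also called higher by edgeR. That call held in all 29 alternatives, with log2 fold changes from 0.28 to 0.40 (largest adjusted p 0.00838, with the GC trend removed). Averaged over the diets, Bhlhe41, a repressor at E-boxes, was lower (-0.53, SE 0.20, adjusted p = 0.0488), a call that held in 11 of 29 alternatives.

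Of 12 genes with a known daily rhythm in liver, edgeR called 2 lower on each diet, and with the diets averaged 2 lower and 1 higher, where 14.4% (LFD), 18.6% (HFD) and 32.9% (averaged) of all genes were called in either direction. The median averaged log2 fold change was -0.12, beside 0.00 for all genes. Cyp7a1, the rate-limiting enzyme of bile acid synthesis, fell most. On the LFD, it was at 48.9, 61.1, 64.1, 119.7 and 49.2 CPM in WT and 9.603, 16.7, 50.7, 34.5 and 20.1 CPM in Adn-Lpin1-/- mice. On the HFD, it was at 102, 115, 189.8, 133 and 175 CPM in WT and 24.7, 40.4, 22.5, 31.9 and 107 CPM in Adn-Lpin1-/- mice. On each diet 1 Adn-Lpin1-/- mouse lay within the WT range and the other 4 below it. Cyp7a1 fell by 61.6% on the LFD (log2 fold change -1.38, SE 0.43, adjusted p = 0.0374 in edgeR) and by 68.3% on the HFD (log2 fold change -1.66, SE 0.43, adjusted p = 0.0128 in edgeR). The HFD call held in all 30 alternatives. The LFD call was lost with the GC trend removed (adjusted p = 0.0661) and on leaving out WT LFD mouse 2 (0.0536), 3 (0.0615) or 4 (0.114), or Adn-Lpin1-/- LFD mouse 1 (0.0728), 2 (0.095) or 5 (0.0875).

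Lonrf3, a RING finger gene, was at 1.72, 1.17, 2.44, 1.77 and 1.68 CPM in WT LFD and 0.663, 1.14, 0.686, 0.827 and 0.721 CPM in Adn-Lpin1-/- LFD, without overlap. It fell by 53.9% on the LFD (log2 fold change -1.12, SE 0.24, adjusted p = 0.00493 in edgeR) and fell by 44.8% on the HFD (-0.86, SE 0.23, adjusted p = 0.0165). The HFD call was lost with Adn-Lpin1-/- HFD mouse 2 left out (-0.74, adjusted p = 0.0509). Leo1, a subunit of the PAF1 complex of transcription, was higher with the diets averaged (0.20, SE 0.07, adjusted p = 0.0405), a call that held in 15 of 29 alternatives. The remaining 9 genes, Usp2, Wee1, Noct, Nampt, Por, Alas1, Rgs16, Elovl3 and Gys2, passed no genotype test, with averaged adjusted p from 0.078 to 0.967 in edgeR.

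Of 9 genes that follow daily systemic cues (glucocorticoids and body temperature), edgeR called 1 higher by genotype on the LFD, 0 on the HFD and 1 higher averaged (14.4%, 18.6% and 32.9% of all genes were called). On the HFD, DESeq2 called 0 and voom 0 of the 9, and edgeR gave 0 with an unadjusted p under 0.05. Sgk1, a kinase induced by glucocorticoids, was at 9.24, 9.06, 8.52, 11.2 and 9.96 CPM in WT LFD and 10.8, 23.2, 16.4, 16.5 and 18.7 CPM in Adn-Lpin1-/- LFD. Only the lowest Adn-Lpin1-/- mouse reached into the WT range, and Sgk1 was higher by a log2 fold change of 0.83 (SE 0.20, adjusted p = 0.009 in edgeR) and by 0.60 with the diets averaged (SE 0.14, adjusted p = 0.00302). The glucocorticoid targets Fkbp5 and Tsc22d3, the heat shock genes Hspa1b, Hspa8, Hsph1 and Dnajb1, and the cold-induced Cirbp were not called by edgeR in any contrast. With voom, Hspa8 was called lower by genotype with the diets averaged (log2 fold change -0.18, adjusted p = 0.0408). The cold-induced Rbm3 was lower on the HFD with the genotypes averaged (log2 fold change -0.24, SE 0.06, adjusted p = 0.0179 in edgeR), where 7.26% of all genes were called.

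**Figure D3:**
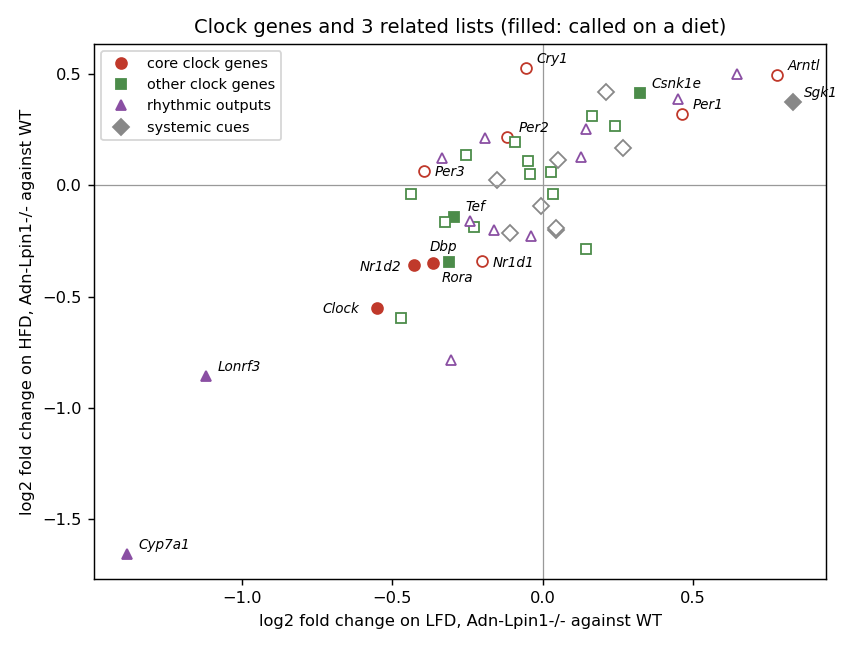
Log2 fold change of Adn-Lpin1-/- against WT on the LFD (x axis) and on the HFD (y axis) for the core clock genes and 3 lists; each point is a gene, and filled points were called on at least 1 diet. Clock, Nr1d2 and Dbp lie in the lower left near Tef and Rora, Cyp7a1 and Lonrf3 lie further out, and Csnk1e and Sgk1 lie in the upper right.

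Several clock genes varied more between mice of a group than most genes did, and the 3 that were called varied less. The SD of log2 CPM within groups was 0.60 for Arntl, above 96.0% of all genes tested. It was 0.44 for Per1 (above 89.3%), 0.44 for Nr1d1 (above 89.0%) and 0.38 for Cry1 (above 83.4%). Per3 (0.30, above 72.9%) and Per2 (0.26, above 65.4%) lay between. Clock (0.20, above 53.8%), Nr1d2 (0.14, above 30.7%) and Dbp (0.13, above 25.9%) were near or below the median of all genes, 0.19. The precision with which a genotype difference could be seen thus differed among the members, from an SE of 0.08 for Dbp to 0.36 for Arntl on the LFD.

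Because only a nominal hour of sampling is given, the difference in log2 CPM between 2 clock genes was taken within each mouse, for pairs that are known to peak at different times of day. A difference of this kind does not depend on library size. For Nr1d1 minus Per2, it was 0.81, 2.28, 0.25, -0.05 and 1.30 in WT LFD and 1.17, 0.77, 1.53, 0.14 and 0.67 in Adn-Lpin1-/- LFD. On the HFD, it was 1.82, 1.34, 1.03, 0.80 and 2.04 in WT and 0.43, 0.28, 1.59, 0.81 and 1.11 in Adn-Lpin1-/- mice. The 4 groups overlapped, and their means spanned 0.56, against ranges within a group of 1.24 to 2.33. The Adn-Lpin1-/- mean minus the WT mean was -0.06 on the LFD and -0.56 on the HFD. For Nr1d1 minus Cry1, the means spanned 0.89, against ranges of 1.29 to 2.37. Here the Adn-Lpin1-/- mean minus the WT mean was -0.13 on the LFD and -0.89 on the HFD.

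For Dbp minus Arntl, the group means spanned 1.44. The difference was 5.404, 4.96, 5.43, 6.77 and 6.07 in WT LFD and 3.98, 3.95, 4.86, 5.18 and 4.79 in Adn-Lpin1-/- LFD, and 4.17, 5.42, 5.06, 5.52 and 5.80 in WT HFD and 4.12, 4.49, 3.34, 4.42 and 5.06 in Adn-Lpin1-/- HFD. The genotypes overlapped on both diets, with means that were lower in Adn-Lpin1-/- mice by 1.17 on the LFD and by 0.91 on the HFD, against ranges within a group of 1.23 to 1.80. For Nr1d1 minus Arntl, the Adn-Lpin1-/- mean was lower by 0.96 on the LFD and by 0.90 on the HFD, against ranges of 0.91 to 1.68. For Per2 minus Arntl, the Adn-Lpin1-/- mean minus the WT mean was -0.90 on the LFD and -0.33 on the HFD, against ranges of 1.32 to 2.80. For Dbp minus Clock, which were both lower in Adn-Lpin1-/- livers, the Adn-Lpin1-/- mean was higher by 0.17 on the LFD and by 0.18 on the HFD, against ranges of 0.39 to 0.72. These differences were given no test. The ranges above are spreads of single mice, which are wider than the uncertainty of a group mean. They do not measure whether the means differ. Whether the actual hour of sampling differed between the groups was not tested.

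**Figure D4:**
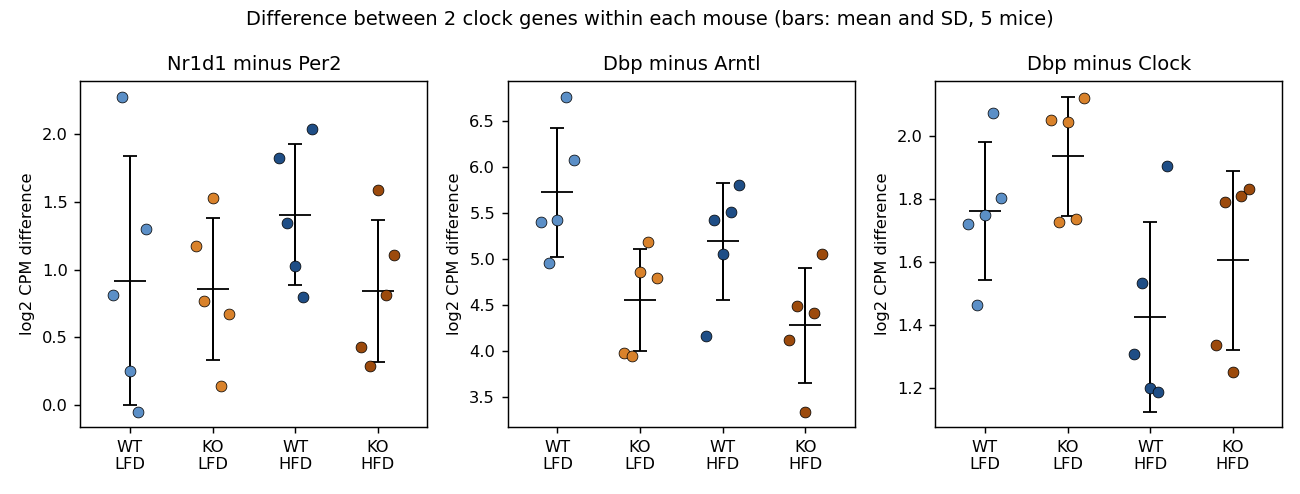
Difference in log2 CPM between 2 clock genes within a mouse (y axis) for Nr1d1 minus Per2, Dbp minus Arntl and Dbp minus Clock, by group (x axis; KO stands for Adn-Lpin1-/-); points are mice, bars the mean and SD of 5 mice. Dbp minus Arntl is lower on average in both KO groups, by 1.17 on the LFD and by 0.91 on the HFD, and Nr1d1 minus Per2 scatters over up to 2.33 within a group.

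Some pairs of clock genes deviated together from their group means, mouse by mouse. The share of such pairs among all genes was not computed. Nothing particular to the clock genes can thus be read from their number. After each group's mean was taken off the log2 CPM, 3 of the 45 pairs of clock genes were correlated over the 20 mice (permutation test, 100000 permutations of mice within groups, two-sided, adjusted over the 45 pairs), and 10 pairs had an unadjusted p under 0.05. Per1 and Per2 rose and fell together (r = 0.68, permutation p = 0.00131, adjusted p = 0.0335; Spearman's rho = 0.61, permutation p = 0.0105), and so did Per2 and Cry1 (r = 0.68, permutation p = 0.00149, adjusted p = 0.0335; rho = 0.69, permutation p = 0.00245). Per2 and Nr1d1 went opposite ways (r = -0.70, permutation p = 0.0024, adjusted p = 0.036; rho = -0.76, permutation p = 0.00071). The next pair was Cry1 and Nr1d1 (r = -0.66, permutation p = 0.00604, adjusted p = 0.0679; rho = -0.64, permutation p = 0.00898). The activators Arntl and Clock had r = 0.56 (permutation p = 0.0326, adjusted p = 0.147; rho = 0.44, permutation p = 0.0795).

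The calls of these pairs were lost when few mice were left out, which also leaves fewer mice for the test. With the 2 mice farthest from the median of the first gene left out, r was 0.67 for Per1 and Per2 (permutation p = 0.00859, adjusted p = 0.129), 0.56 for Per2 and Cry1 (permutation p = 0.0459, adjusted p = 0.338) and -0.57 for Per2 and Nr1d1 (permutation p = 0.0298, adjusted p = 0.335), so no pair was called. With each mouse left out in turn, r stayed between 0.62 and 0.76, between 0.61 and 0.76, and between -0.78 and -0.61 for these 3 pairs. By Spearman's rho, 1 pair was called (Per2 and Nr1d1, adjusted p = 0.0319). Clock, Nr1d2 and Dbp, which differed by genotype, were in none of the called pairs, and among themselves had r from -0.10 to 0.23.

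**Figure D5:**
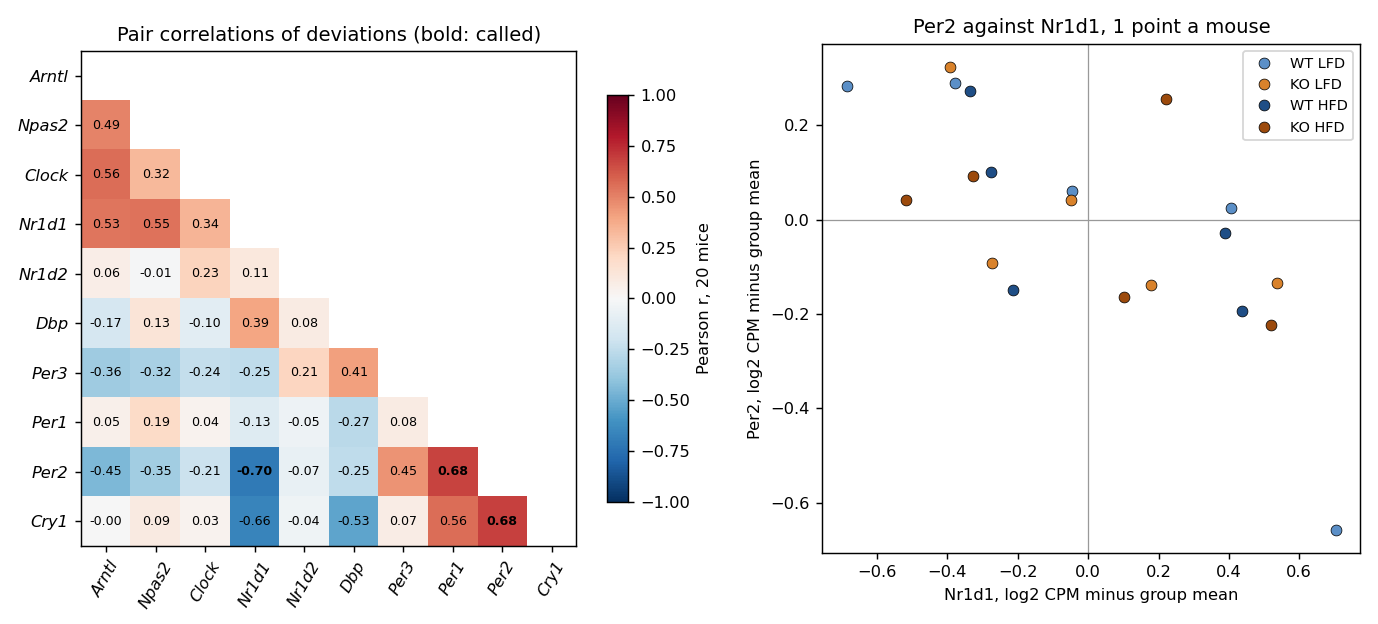
Left, Pearson r of the 45 pairs of clock genes over 20 mice (colour from -1 to 1, values printed, bold where the adjusted p is at or below 0.05), on log2 CPM minus the group mean. Right, Per2 against Nr1d1 on the same scale (log2 CPM minus the group mean on both axes), 1 point a mouse and coloured by group (KO stands for Adn-Lpin1-/-), with r = -0.70 and mouse 2 of WT LFD at the lower right.

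Over all 13052 genes tested, the genes whose deviations from the group means were most like those of Arntl were Med12 (r = 0.83), Mars (0.80), Gtf2ird1 (0.80), Kctd10 (0.80) and Coq8a (0.79), and the most opposite were Ddx18 (r = -0.82), Etfrf1 (-0.75), Cep63 (-0.75), Ciapin1 (-0.75) and Smim19 (-0.74), over 20 mice. No core clock gene was among them. These are the extremes of a long list, on libraries whose depth also differs, and were given no test.

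Markers of some cell types were called by genotype. Of all genes tested, edgeR called 14.4% on the LFD, 18.6% on the HFD and 32.9% with the diets averaged, in either direction. Thus 1 call in a list of 6 is near the LFD and HFD shares. In edgeR, of 6 hepatocyte markers, 1 was lower on the LFD and 3 were lower on the HFD, and their summed level was 101593 to 109257 CPM in WT LFD, 72970 to 97843 in Adn-Lpin1-/- LFD, 91841 to 118070 in WT HFD and 77101 to 101084 in Adn-Lpin1-/- HFD. Of 6 markers of sinusoidal endothelium, 2 were higher on the LFD and 4 on the HFD (summed 71.2 to 123, 98.0 to 191, 88.3 to 132 and 138 to 159 CPM, in the same order of groups). Of 6 Kupffer cell and macrophage markers, edgeR called 0 on the LFD (1 at an unadjusted p under 0.05; DESeq2 called 1, Cd68, and voom 0) and 4 higher on the HFD (93.4 to 169, 114 to 228, 113 to 147 and 146 to 326 CPM). Of 6 stellate cell markers, 2 were higher on the LFD and 1 on the HFD (93.8 to 172, 168 to 263, 162 to 215 and 171 to 262 CPM). Of 5 cholangiocyte markers, edgeR called 0 on either diet (3 on the LFD and 0 on the HFD at an unadjusted p under 0.05) and 2 higher with the diets averaged (22.6 to 50.5, 34.0 to 82.6, 14.3 to 39.1 and 26.1 to 57.8 CPM). On the LFD, DESeq2 and voom each called 1 of them, Krt19, and on the HFD 0. Of 4 lymphocyte markers, 1 was high enough to test, and it was not called by edgeR, DESeq2 or voom (0 and 0 at an unadjusted p under 0.05 in edgeR; summed 1.55 to 3.40, 1.58 to 2.80, 1.48 to 3.66 and 2.27 to 4.19 CPM). Of 5 adipocyte markers only Cfd was high enough to test. It was higher on both diets and made up most of their sum (0.261 to 4.63, 1.80 to 36.1, 1.42 to 16.6 and 3.96 to 184 CPM), while Adipoq, the gene of adiponectin, reached 4.32 CPM in its highest mouse, and Lep, Plin1 and Retn stayed at or below 0.116 CPM. With the diets averaged, edgeR called 4 of the 6 hepatocyte markers lower and none higher. It called all 6 markers of sinusoidal endothelium, 4 of 6 of Kupffer cells and macrophages and 2 of 6 of stellate cells higher, and none lower. The part of cell composition in the differences of Clock, Nr1d2 and Dbp was not tested.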

How the data were processed

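Liver poly-A RNA, reverse transcribed with random hexamers, was sequenced from 20 single mice and 4 pools. The authors aligned reads to GRCm38 with STAR 2.5.1a and counted uniquely aligned, unambiguous reads on Ensembl release 76 genes with featureCounts 1.4.6-p5. They deposited a raw count, a CPM and an RPKM for each of 41388 genes and library; the deposited CPM and RPKM were only compared with values recomputed from the counts.

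Symbols matched 97.3% of the genes. Besides 355 rRNA genes, genes that passed 1 CPM in fewer than 4 of the 20 mice were left out. The other 13052 were tested with the quasi-likelihood test of edgeR 4.0.16 (R 4.3.3): TMM scaling, 4 group means in 1 fit, Benjamini-Hochberg adjustment over all genes, threshold 0.05. CPM per kilobase used the exon lengths deposited with the counts. Gene types, which marked the rRNA genes, and GC content came from GENCODE mouse release M21. Correlations used log2 CPM (prior count 2) minus group means, and 100000 permutations of mice within groups. As alternatives, DESeq2 1.42.0 (size factors, Wald test), voom with quality weights in limma 3.58.1, the pools as sixth libraries, other limits on low counts, separate fits for each pair of groups, a block for the replicate number, thinning to the smallest total and the omission of each mouse were run. Removal of a GC trend, the omission of mice in the correlations and all alternatives for genes of the lists were added after seeing the data. The pools repeat RNA of the same mice, so the adjusted p of that setting are too small. The tests were run first on simulated data. Python 3.11.15 with numpy 2.4.6, pandas 2.3.3, scipy 1.17.1 and matplotlib 3.10.9 did the other steps.

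The 10 genes and the lists (other clock genes, rhythmic outputs, systemic cues, and markers of hepatocytes, stellate cells, Kupffer cells and macrophages, sinusoidal endothelium, cholangiocytes, adipocytes and lymphocytes) were chosen with earlier results of these data known. All 10 members were described. A gene of the 3 clock-linked lists was named with values where it was called in a contrast, up to 6 per list by adjusted p, beside the 5 genes most like and the 5 least like Arntl. The values of 1 gene of the other clock genes are not reported here.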

Additional observations from a re-analysis of the deposited data

Results flagged for a closer look

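In 40 groups of 5 mice (10 clock genes in 4 groups), the gap between the highest or lowest mouse and its nearest neighbour was set against the whole range of the group. In 1 of them this ratio passed Dixon's critical value of 0.71 for 5 samples: Arntl was at 3.74 CPM in mouse 1 of WT HFD, where the other 4 mice lay between 1.18 and 1.80 CPM (ratio 0.759). Chance flags about 1 in 20 groups. With that mouse left out, the averaged genotype difference of Arntl was 0.82 on the log2 scale (adjusted p = 0.0111 in edgeR), against 0.64 (adjusted p = 0.0576) with all mice; over all alternatives the adjusted p ran from 0.0111 to 0.121.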

How the results depend on the processing

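Clock, Nr1d2 and Dbp kept their direction and their calls by genotype on both diets in all 30 alternatives. The log2 fold change of Clock ranged from -0.63 to -0.41 on the LFD and from -0.65 to -0.41 on the HFD, that of Nr1d2 from -0.49 to -0.31 and from -0.42 to -0.24, and that of Dbp from -0.45 to -0.33 and from -0.49 to -0.30. With the diets averaged, 5 clock genes were called in place of 3 with the pools as sixth libraries (Arntl and Per1 in addition), and 1 (Clock) for diet with the genotypes averaged. The pools are not independent of the single mice. With each mouse left out in turn, between 3 and 5 genes were called for genotype averaged (5 without Adn-Lpin1-/- HFD mouse 5), between 0 and 1 for diet in WT mice and between 0 and 1 for diet averaged. Of the correlated pairs, 1 was called by Spearman's rho and 0 with the 2 farthest mice left out, and between 0 and 6 with each mouse left out. There were 0 when any of WT LFD mice 1, 2, 3 and 4, Adn-Lpin1-/- LFD mice 1 and 4, or WT HFD mice 4 and 5 was omitted, 1 in the absence of Adn-Lpin1-/- HFD mouse 1, and 6 in that of WT HFD mouse 2. The cause was not tested.

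Among the clock genes, only differences that were not called changed sign. The genotype by diet interaction of Clock, 0.00 in the report, was -0.000826 with DESeq2's size factors, -0.000663 with its Wald test, -0.0923 with voom, -0.0193 with the pools, -0.0156 with no limit on low counts, -0.0142 with the default limit and -0.0224 after thinning. That of Dbp was -0.0046 with no limit, -0.00317 with the default limit and -0.0325 with the GC trend removed. With each mouse left out, the interaction ranged from -0.53 to 0.0935 for Arntl, from -0.10 to 0.0722 for Clock and from -0.0553 to 0.0638 for Dbp. The genotype difference ranged from -0.18 to 0.0664 for Cry1 and from -0.36 to 0.00696 for Nr1d1 on the LFD, and from -0.038 to 0.21 for Per3 on the HFD.

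Over all genes, 144 were called for diet in WT mice, against 400 with DESeq2, 670 with voom, 686 with the pools and 70 in a fit of those groups alone. For diet in Adn-Lpin1-/- mice 321 were called, against 577, 364, 959 and 155. For genotype on the LFD 1877 were called, and 3017 with the pools; on the HFD 2434, and 3781 with the pools. For diet averaged it was 948, against 1539 with voom and 2011 with the pools. On leaving out single mice, these counts ran from 1208 (WT LFD mouse 3) to 1954 for genotype on the LFD, from 1477 (Adn-Lpin1-/- HFD mouse 2) to 2750 for genotype on the HFD, from 55 (WT HFD mouse 3) to 289 (WT LFD mouse 5) for diet in WT mice and from 123 (Adn-Lpin1-/- LFD mouse 3) to 383 for diet in Adn-Lpin1-/- mice.

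Replicate numbers did not pair the mice: same-numbered mice of 2 groups correlated between -0.415 and 0.281. Over the 6 pairs of groups, a mouse correlated best with its own number in 6 of 30 comparisons, in which the same mice recur. With the replicate block, 5 clock genes (Arntl and Per1 in addition) were called for genotype averaged, 3 on each diet, and 90 genes in place of 144 for diet in WT mice. The block ended the calls of Rora on the HFD, Csnk1e on the LFD and Bhlhe41 averaged. Arntl, with 23 to 375 counts per mouse, and Npas2, with 4 to 62, were limited most by depth.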
